A study of Mus musculus with 27 samples.

Results

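Cholesterol genes were followed through a culture that takes mouse embryonic stem cells (ESCs) toward the somatic cells of the gonad. The set held 32 genes of cholesterol synthesis, uptake, storage and export, out of 48795 genes in the files. They were chosen by name and by their known role, matched by symbol to Ensembl identifiers, and taken in 3 classes of 19 synthesis enzymes, 7 sterol regulators and 6 genes of uptake, storage, transfer and export. All 32 were found, and all 32 passed the filter on low counts that left 20839 genes for testing.

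RNA was sequenced from 27 libraries in 9 groups of 3, all from Tesco-CFP; R26-rtTA XY cells of clone 7, on an F1:C57BL/6 x CBA background, so every group rests on a single clone. The ESC group was grown in medium with 20% knockout serum replacement (KSR) and 1000 U/ml LIF. EpiSC, the epiblast-like stage, was reached in 60 hours with bFGF at 12 ng/ml, KSR at 1% and Activin A at 20 ng/ml. M, the early mesoderm stage, was given 20 ng/ml bFGF, 10 ng/ml BMP4 and 10 μM LY294002, a PI3K inhibitor, for 36 hours in a chemically defined medium with polyvinyl alcohol. The intermediate mesoderm (IM) stage used the same base medium with 5 ng/ml bFGF and 20 ng/ml BMP4. IM1 had nothing more, IM3 had 100 nM retinoic acid (RA), IM4 had RA and 0.3 μM CHIR99021 (a GSK3 inhibitor that raises WNT signalling), IM2 had RA and 10 ng/ml Activin A, and IM5 had RA, Activin A and CHIR99021. The induced Sertoli-like cells (iSLCs) were IM3 cells carrying lentiviral, doxycycline-inducible *Nr5a1* and *Dmrt1*, kept in a Sertoli medium with added hormones and growth factors and sorted for the CFP reporter. Stage, medium and, for iSLC, transgenes and sorting change together, so their parts in any difference cannot be told apart.

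Libraries held 35923040 to 84876603 estimated fragments each, and the lowest count of any member in any library was 25, for *Nr1h3*. Defining markers followed the labels of the first stages: the naive gene *Zfp42* was at 66.5 TPM in ESC, *Fgf5* at 119 TPM in EpiSC and the mesoderm gene *Mixl1* at 203 TPM in M. TPM is a level per gene length, scaled to the same sum in every library. The IM label was borne out in part, since *Wt1* reached 149 TPM and *Gata4* 340 TPM in IM3 while *Pax2* was at 0.0367 TPM and *Lhx1* at 0.443 TPM there. In iSLC, *Nr5a1* (93.8 TPM) and *Dmrt1* (213 TPM) include transgene reads. The Sertoli markers *Amh* (0.56 TPM), *Ptgds* (0.493 TPM), *Cst9* (1.5 TPM) and *Dhh* (1.86 TPM) were near 0 in iSLC, with *Sox9* at 24.8 TPM. Red blood cell genes summed to 4.02 to 27.6 CPM (counts scaled to library size) in 12 libraries, those of IM3, IM4, ESC and M, and to 0.375 to 1.38 CPM in the 15 others. The dependence of counts on GC content also shifted between these sets of libraries. Where a comparison crosses these sets, values with a GC offset are given for the enzymes as a class and for some single genes only. The rest of the part of these sets was not tested. In bulk RNA, fewer cells of a type and less RNA per cell cannot be told apart. The study calls the libraries of a group biological replicates. The labels do not say whether they came from separate cultures. The p-values set a difference between groups against the spread between libraries within groups, estimated over all 27 libraries together.

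Cells make cholesterol from acetyl-CoA through mevalonate, isoprenoids, squalene and lanosterol, and the last steps trim lanosterol to cholesterol. The transcription factor SREBP-2, from *Srebf2*, is carried by SCAP from the endoplasmic reticulum for activation when sterols are low and is held back by the INSIG proteins when they are high, so that the enzymes' genes are switched on as a group. Oxidized sterols in turn activate the LXR receptors, from *Nr1h2* and *Nr1h3*, which switch on the exporters *Abca1* and *Abcg1*. In the testis, cholesterol is the substrate of the steroid hormones that Leydig cells make, and Sertoli cells handle it for their own membranes and for germ cells.

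The sequence before the start of these genes carries letters that the enzyme genes have in common. Promoter windows of 250 bases before to 50 bases after the start were found in RefSeq (GRCm38.p6) for 26 of the 32 members, and none was found for *Fdps*, *Fdft1*, *Sqle*, *Stard4*, *Npc1* and *Abcg1*. CCAAT, the box bound by NF-Y, a partner of SREBP, was present on either strand in 15 of 16 synthesis enzymes (93.8%), all except *Acat2*, beside 41.1% of the 27025 genes of the table and 42.3% of the genes tested. It was present in 4 of 7 regulators and in 2 of 3 genes of the transport class. The GC box GGGCGG was also in 15 of 16 enzymes, beside 38.2% of all genes and 62.2% of the genes tested. The sterol regulatory element written as TCACNCCAC was in 1 of 16 enzymes, *Hmgcs1*, beside 1.44% of all genes. The E-box CACGTG was in 3 of 16 enzymes (18.8%), beside 8.09% of all genes and 10.7% of the genes tested. The NR5A1 letters CAAGGTCA or CAAGGCCA were in 1 member, *Dhcr7*, beside 4.48% of all genes and 3.88% of the genes tested. These are matches of letters on both strands and not binding sites, and a gene with several starts counts once. The stretches of 5 enzymes and that of *Abca1* are shown, the enzymes because *Hmgcs1* holds the single match to the sterol element, *Mvk*, *Nsdhl* and *Sc5d* carry CCAAT at the start of other steps, and *Ebp* carries it too although its level moved apart from the rest; *Abca1* has neither a CCAAT box nor the sterol element in its window. Each is the 150 bases before the RefSeq start, written 5′ to 3′ along the gene, with capitals marking the CCAAT box on either strand and, in *Hmgcs1*, the letters of the sterol element as well.
Hmgcs1, chr13:119690201-119690350, plus strand: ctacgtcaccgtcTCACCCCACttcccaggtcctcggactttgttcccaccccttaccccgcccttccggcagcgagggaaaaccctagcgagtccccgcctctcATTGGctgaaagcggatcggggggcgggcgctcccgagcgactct
Mvk, chr5:114444119-114444268, plus strand: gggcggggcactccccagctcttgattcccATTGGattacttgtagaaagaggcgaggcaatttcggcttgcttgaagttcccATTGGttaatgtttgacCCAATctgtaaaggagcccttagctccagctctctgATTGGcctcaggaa
Nsdhl, chrX:72918371-72918520, plus strand: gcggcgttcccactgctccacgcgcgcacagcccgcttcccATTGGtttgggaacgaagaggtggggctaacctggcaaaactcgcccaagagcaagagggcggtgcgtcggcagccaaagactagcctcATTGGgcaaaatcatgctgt
Sc5d, chr9:42264301-42264450, minus strand: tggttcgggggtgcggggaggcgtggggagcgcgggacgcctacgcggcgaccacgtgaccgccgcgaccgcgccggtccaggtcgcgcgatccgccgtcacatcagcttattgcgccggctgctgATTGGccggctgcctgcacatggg
Ebp, chrX:8193513-8193662, minus strand: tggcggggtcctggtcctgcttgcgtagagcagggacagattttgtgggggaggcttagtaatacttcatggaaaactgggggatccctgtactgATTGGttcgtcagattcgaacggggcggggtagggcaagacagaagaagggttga
Abca1, chr4:53159896-53160045, minus strand: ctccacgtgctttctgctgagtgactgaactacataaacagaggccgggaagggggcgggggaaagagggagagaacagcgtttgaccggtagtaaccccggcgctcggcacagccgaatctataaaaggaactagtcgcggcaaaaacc

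By summed TPM, the synthesis enzymes were low in ESC, higher in EpiSC, M and the IM groups, and low again in iSLC. Their summed level was 1086 ± 17.4 TPM in ESC (SD, n = 3), 2235 ± 62.7 in EpiSC, 3075 ± 149 in M and 3997 ± 23.2 in IM3, and it was 1334 ± 24.5 in iSLC. Between the extremes stood IM1 at 3317 ± 56.9, IM2 at 3630 ± 71.8, IM4 at 3866 ± 94.8 and IM5 at 3286 ± 27.7. The ranges of ESC, iSLC, EpiSC, M and the IM groups did not overlap in that order, whereas IM1 (3268 to 3379) and IM5 (3266 to 3318) overlapped. On counts the step from M was small, at a median log2 fold change of 0.07 in IM1 and 0.30 in IM3. ESC was the lowest group for 15 of the 19 enzymes, iSLC for 3 and IM4 for 1, and IM3 was the highest for 11. The highest group was 1.92 to 7.31 times the lowest, with a median of 4.6.

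**Figure D1:**
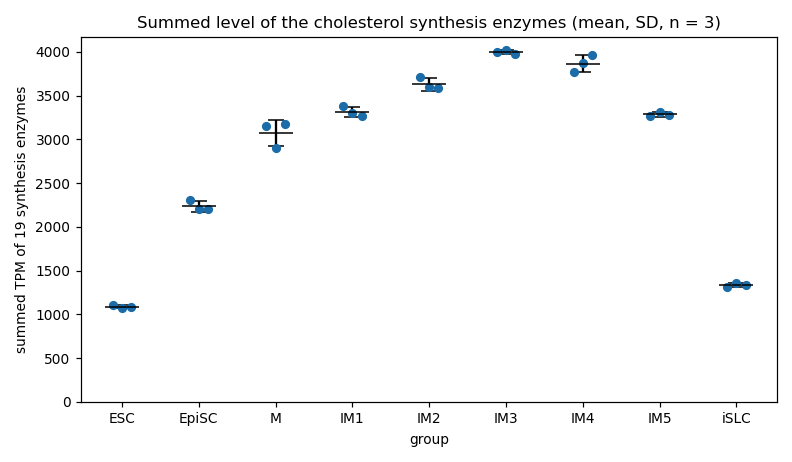
Summed TPM of the 19 cholesterol synthesis enzymes in each of 27 libraries (points) by group on the x axis, with the mean (bar) and SD (whiskers, n = 3). ESC libraries sit at 1069 to 1103 and iSLC libraries at 1312 to 1360, below every library of the other 7 groups, and IM3 is the highest at 3972 to 4018.

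All 32 members differed among the 9 groups (edgeR quasi-likelihood F test, adjusted p under 0.05), but so did 96.4% of all genes tested, so this count says little about cholesterol genes. Pairwise, a gene is called differentially expressed (DE) where it differs 2-fold or more, its edgeR adjusted p is 0.01 or lower, and its normalized counts average 100 or more. Percentages of all genes in pairwise comparisons refer to this rule. Counts of members at a p-value alone, without the fold, have no share of all genes beside them. Such counts are not a result about these genes in particular.

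Between ESC and EpiSC, 11 of 19 synthesis enzymes rose, and the other 8 did not pass, beside 3.75% of all genes that rose. Their median log2 fold change was 1.04, where the median of all genes was 0.00. The largest rises were in the middle of the pathway. *Lss*, which closes squalene epoxide into lanosterol, was at 33.3, 34.5 and 26.9 TPM in the ESC libraries and at 85.3, 87.9 and 87.7 TPM in EpiSC. *Cyp51*, which takes a methyl group off lanosterol, was at 37.4, 36.4 and 39.7 TPM and then at 109, 104 and 105 TPM. *Msmo1*, which removes the next methyl groups, was at 56.2, 53.2 and 52.6 TPM and then at 150, 138 and 143 TPM. No library of one group reached the range of the other for these 3 genes. On counts their log2 fold changes were 1.48 ± 0.039 (SE, adjusted p = 5.73e-21), 1.48 ± 0.041 (adjusted p = 1.69e-20) and 1.44 ± 0.045 (adjusted p = 1.53e-19) by edgeR.

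The other enzymes that rose were *Hmgcs1*, which makes HMG-CoA (log2 fold change 1.28), *Mvk*, which phosphorylates mevalonate (1.04), *Idi1*, which interconverts the basic isoprenoid units (1.28), *Fdps*, which joins them to farnesyl diphosphate (1.26), the sterol reductase gene *Tm7sf2* (1.04), *Nsdhl* (1.24) and *Hsd17b7* (1.01), which work with *Msmo1* on the methyl groups, and *Dhcr7* (1.13), which carries out a last reduction. Several members lay just under the fold of 2, with *Acat2* (acetoacetyl-CoA formation) at a log2 fold change of 0.99, *Sc5d* (a late desaturase) at 0.98, *Sqle* (squalene epoxidation) at 0.95, *Pmvk* (the second phosphorylation) at 0.94, *Mvd* (decarboxylation to the isoprenoid unit) at 0.90 and *Fdft1* (squalene formation) at 0.86. All 6 had an adjusted p of at most 4.62e-09 in edgeR. *Lbr* and *Ebp* differed from this picture, at 0.14 ± 0.043 (adjusted p = 0.00563) and 0.03 ± 0.063 (adjusted p = 0.752). ESC and EpiSC fall on different sides of the red blood cell partition, and with an offset for GC content 11 enzymes rose as well, at a median of 1.02, with *Sc5d* (1.02) in the place of *Mvk* (0.89). With an offset for effective gene length, 9 rose. Without ESC replicate 3, *Tm7sf2* (1.00) and *Hsd17b7* (0.99) fell short of the thresholds.

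From EpiSC to M, 18 of 19 enzymes had a log2 fold change above 0, with a median of 0.42 where the median of all genes was -0.06. Only *Acat2* passed the thresholds, beside 6.79% of all genes that rose. *Acat2* was at 160, 149 and 147 TPM in EpiSC and at 336, 313 and 340 TPM in M, with no overlap, and its log2 fold change was 1.04 ± 0.051 (edgeR adjusted p = 7.29e-16). The exception in sign was *Idi1* at -0.25 ± 0.053 (adjusted p = 0.000195). These groups lie on different sides of the red blood cell partition, and with a GC offset the median was 0.30 and 1 enzyme rose.

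From M to the IM stage the enzymes as a class stayed near the M level. The median log2 fold change was 0.07 in IM1 and 0.30 in IM3, and no enzyme rose by the thresholds (edgeR; 14 of the 19 had an unadjusted p under 0.05 in each comparison, and DESeq2 also called no rise), beside 9.72% of all genes that rose in IM1 and 9.26% in IM3. With a GC offset the median was 0.09 in IM1 and 0.14 in IM3. *Mvk* was highest here, at 48.7 to 50.5 TPM in M and at 99.4 to 110 TPM in IM1. Its log2 fold change was 0.94, and 0.51 with a GC offset, both under the fold of 2. *Sc5d* had a log2 fold change of 0.95 in IM3, again just under that limit.

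**Figure D2:**
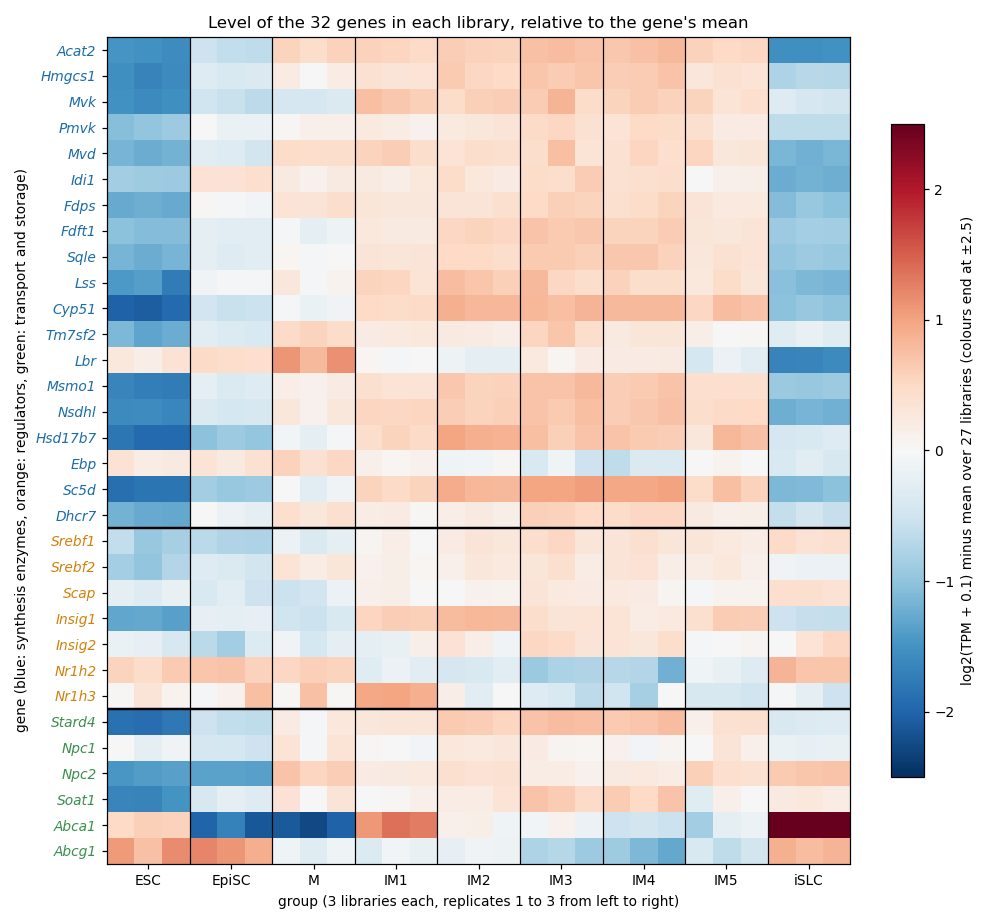
Level of each of the 32 genes (rows, by class) in each of 27 libraries (columns, by group), as log2(TPM + 0.1) minus the gene's mean over all libraries. Most enzyme rows are blue in ESC and iSLC and red in the IM groups, the rows of *Lbr*, *Ebp*, *Nr1h2* and *Abca1* depart from this, and *Abca1* in iSLC lies beyond the end of the colour scale.

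Some late enzymes went another way. *Lbr* and *Tm7sf2* encode reductases that can both act on the sterol that *Cyp51* releases, and *Lbr* is also a protein of the inner nuclear membrane. *Lbr* was at 212, 171 and 217 TPM in M, at 102, 96.5 and 97.9 TPM in IM1 and at 116, 102 and 113 TPM in IM3. It fell by 1.21 ± 0.044 on the log2 scale in IM1 (edgeR adjusted p = 9.84e-19) and by 1.11 ± 0.044 in IM3 (adjusted p = 5.66e-18), with M above every IM1 and IM3 library. *Tm7sf2* had log2 fold changes of -0.41 and -0.20 in the same comparisons and was not DE. The level of *Lbr* over that of *Tm7sf2* was 6.64 ± 0.446 in ESC (SD, n = 3), 4.05 ± 0.0638 in EpiSC, 3.38 ± 0.533 in M, 1.81 ± 0.254 in IM3 and 0.908 ± 0.0547 in iSLC. The ratios of ESC, of EpiSC, of M, of IM3 and of iSLC did not overlap. *Lbr* shares 9.2% of its exon length with *Dnah14* on the opposite strand and *Tm7sf2* shares 12.1% with *Vps51* on the same strand, so their counts are uncertain to that extent.

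*Ebp*, the isomerase that moves a bond in the sterol ring, was at 37.3, 32.3 and 35.4 TPM in M and at 19.1, 23.1 and 17.4 TPM in IM3. It fell by 1.13 ± 0.066 on the log2 scale (edgeR adjusted p = 2.35e-14), and the groups did not overlap. In IM1 its log2 fold change was -0.54, short of the fold of 2. With *Lbr* it made up the 2 of 19 enzymes that fell in IM3, beside 5.66% of all genes that fell, and *Lbr* alone fell in IM1, beside 5.94%. *Ebp* was the enzyme with the smallest span, 1.92-fold between its highest group (M) and its lowest (IM4).

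**Figure D3:**
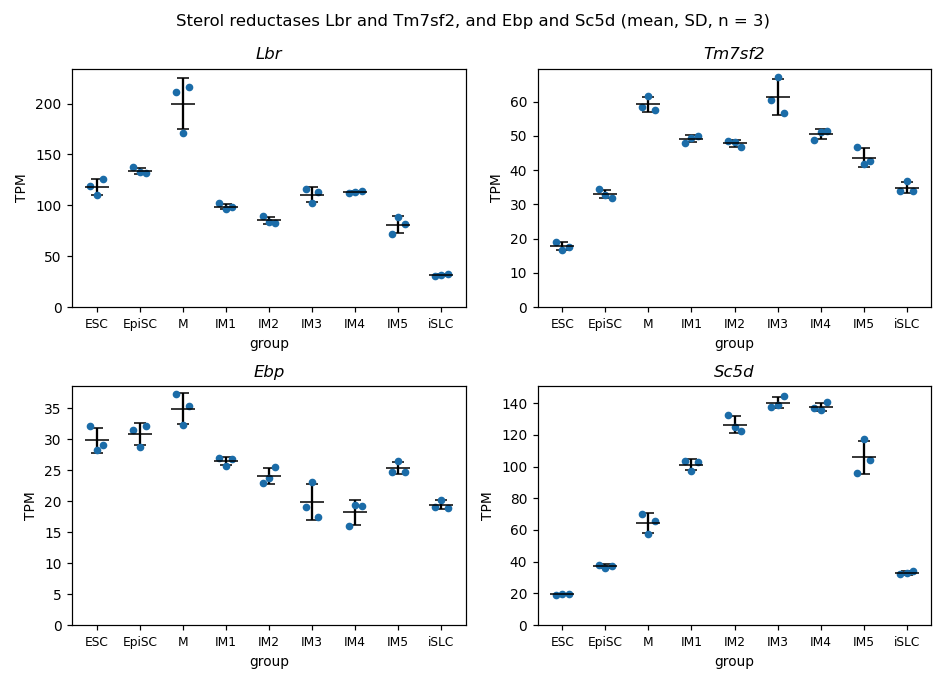
TPM of *Lbr*, *Tm7sf2*, *Ebp* and *Sc5d* in each library (points) by group, with mean and SD (n = 3) and axes from 0. *Lbr* and *Ebp* are highest in M and fall in IM3, whereas *Sc5d* is highest in IM3 and follows the course of most enzymes.

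In iSLC the synthesis enzymes fell back. Against IM3, the cells they were made from, 15 of 19 fell, beside 8.92% of all genes that fell, and the median log2 fold change was -1.56 (all genes 0.00). *Acat2* was at 382, 393 and 375 TPM in IM3 and at 79.0, 79.2 and 79.9 TPM in iSLC, and it fell by 2.26 ± 0.053 on the log2 scale (edgeR adjusted p = 9.7e-23). *Sc5d* was at 138, 139 and 144 TPM and then at 32.1, 32.6 and 34.3 TPM, and fell by 2.09 ± 0.051 (adjusted p = 1.67e-22). *Cyp51* was at 274, 260 and 275 TPM and then at 75.6, 79.5 and 76.2 TPM, and fell by 1.9 ± 0.041 (adjusted p = 2.08e-23). The iSLC libraries lay under all IM3 libraries for each of these 3 genes.

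The fall ran along the whole pathway. Among the 7 enzymes up to farnesyl diphosphate 6 fell, at a median log2 fold change of -1.52. All 3 from squalene to lanosterol fell (*Fdft1* by 1.54, *Sqle* by 1.56 and *Lss* by 1.78 on the log2 scale). Of the 9 after lanosterol 6 fell, at a median of -1.63. *Hmgcs1* fell by 1.39, *Fdps* by 1.52, *Mvd* by 1.66, *Idi1* by 1.68, *Pmvk* by 1.06, *Nsdhl* by 1.89, *Msmo1* by 1.63, *Lbr* by 1.68 and *Dhcr7* by 1.03 on the log2 scale. The 4 that did not pass were *Mvk* (-0.96), *Hsd17b7* (-0.95), *Tm7sf2* (-0.73) and *Ebp*, whose log2 fold change was -0.02 ± 0.067 (adjusted p = 0.754). *Fdps* shares 26.7% of its exon length with *Gm43738* on the same strand and *Fdft1* shares 18.3% with *Ctsb* on the opposite strand.

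IM3 and iSLC differ in more than these genes. Endoderm markers summed to 333 to 396 TPM in IM3 and 10.2 to 17.1 TPM in iSLC (5 of 5 markers at 1 TPM or more in each group), endothelial markers to 64.6 to 76.0 and 27.5 to 30.0 TPM (5 and 2 of 5), and proliferation genes to 1060 to 1130 and 586 to 620 TPM (4 of 4 in each). Macrophage markers stayed at 7.59 to 7.68 and 4.73 to 6.22 TPM (2 and 1 of 5). The part of these in the fall was not tested. Against IM1, IM2 and IM5 averaged, 13 of 19 enzymes fell, at a median of -1.37, somewhat less than against IM3. These 3 groups share the low red blood cell signal with iSLC and were added as a reference after seeing the data. Against IM3 with a GC offset, 16 of 19 enzymes fell, at a median of -1.49.

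Set against ESC, a comparison added after the levels had been seen, iSLC had 1 enzyme that rose and 1 that fell, beside 17.0% and 15.0% of all genes. *Hsd17b7* rose from 8.35, 7.64 and 7.60 TPM in ESC to 21.9, 22.7 and 23.4 TPM in iSLC (log2 fold change 1.40 ± 0.052, edgeR adjusted p = 3.02e-19), and *Lbr* fell by 2.08 ± 0.046 on the log2 scale (adjusted p = 3.15e-24). With a GC offset 1 enzyme rose and 2 fell, *Ebp* being added at a log2 fold change of -1.21, and the median over the 19 enzymes was -0.01. Without the offset *Ebp* was at -0.98 and the median was 0.20. For 14 of the 19 the adjusted p was at most 0.01, so most levels differed from ESC by less than a fold of 2 rather than matching it. The share of all genes at that cut is not given here.

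**Figure D4:**
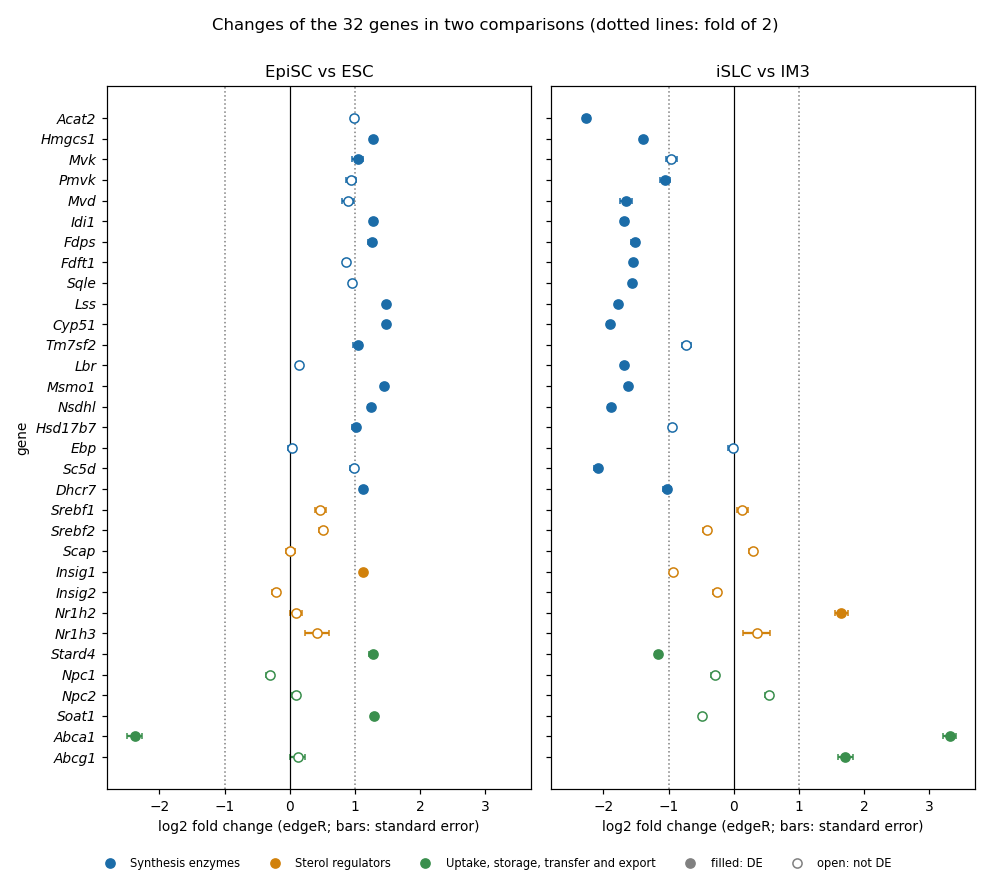
Log2 fold change of each of the 32 genes, with its standard error, for EpiSC vs. ESC (left) and iSLC vs. IM3 (right), coloured by class, filled where DE. Enzymes lie to the right of 0 in the left panel and to the left of 0 in the right panel except *Ebp*, which is near 0 in both, and *Abca1* has the largest change in both.

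The enzymes moved together across the groups. Over the 9 group means of log2 normalized counts, the median Spearman correlation between pairs of the 19 enzymes was 0.717, and 0.792 without *Ebp* and *Lbr*. These points share stage and medium, so the values are a description. Against the mean of the other enzymes, *Lss* (0.98), *Hmgcs1* (0.97), *Msmo1* (0.95) and *Nsdhl* (0.95) followed it most closely, *Idi1* (0.53) and *Mvd* (0.63) less so, and *Lbr* (-0.13) and *Ebp* (-0.42) did not. The lower ranks of *Mvd* and *Idi1* belong to the Spearman measure, since Pearson's correlation was 0.98 for *Mvd* and 0.85 for *Idi1*, beside 0.98 for *Hmgcs1*. Outside the enzymes, *Stard4* was at 0.93, *Srebf2* at 0.72 and *Srebf1* at 0.25, while *Nr1h2* was at -0.88 and *Abcg1* at -0.82. Pearson's correlation was 0.92 for *Stard4*, 0.89 for *Srebf2*, 0.52 for *Srebf1*, -0.7 for *Nr1h2* and -0.8 for *Abcg1*.

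Of the 7 sterol regulators, *Insig1*, *Nr1h2* and *Srebf1* were DE in at least 1 comparison. The share of all genes that were DE in at least 1 comparison is not given here. *Insig1*, the retention protein whose gene is itself a target of SREBP, was at 39.7, 40.4 and 38.2 TPM in ESC and at 85.5, 82.7 and 85.3 TPM in EpiSC, and rose with a log2 fold change of 1.13 ± 0.045 (edgeR adjusted p = 1.86e-17). It was the only regulator of 7 that rose there, beside 3.75% of all genes. It was highest in IM2 at 173 TPM, and in iSLC it was at 68.2, 66.1 and 64.6 TPM, a log2 fold change of -0.93 from IM3 that missed the fold of 2. Against IM1, IM2 and IM5 averaged it was -1.28 and passed. *Insig2*, its relative that does not depend on SREBP in the same way, was at 12.1 to 25.3 TPM by group mean and was not DE in any comparison. The level of *Insig1* over *Insig2* ran from 2.52 ± 0.158 in ESC (SD, n = 3) to 8.44 ± 1.36 in IM2 and was 2.96 ± 0.651 in iSLC, where its range met that of ESC.

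*Srebf2* was at 79.4, 72.2 and 85.4 TPM in ESC, at 114, 110 and 104 TPM in EpiSC and at 182, 162 and 177 TPM in M, and was not DE in any step, with log2 fold changes of 0.51 and 0.60. In iSLC it was at 135, 130 and 128 TPM (-0.41 from IM3). *Srebf1*, whose protein acts more on fatty acid genes, was at 56.0, 44.7 and 48.0 TPM in ESC and at 119, 111 and 114 TPM in iSLC. It rose between these groups with a log2 fold change of 1.23 ± 0.085 (edgeR adjusted p = 3.59e-13), which with a GC offset was 0.68 and did not pass. *Srebf2* over *Srebf1* was 2.39 ± 0.039 in M and 1.15 ± 0.0252 in iSLC (SD, n = 3), the highest and the lowest group. *Scap* was at 30.2 to 51.9 TPM by group mean and was not DE anywhere. It shares 13.2% of its exon length with a gene on the opposite strand. What is measured here is the genes' RNA, and the processing of SREBP proteins was not measured.

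The LXR genes were unequal in level. *Nr1h2* (LXR beta) was at 70.4, 74.1 and 71.7 TPM in M, at 40.0, 44.0 and 40.5 TPM in IM1, at 25.7, 28.3 and 29.0 TPM in IM3 and at 87.8, 79.6 and 79.6 TPM in iSLC. The 4 groups did not overlap. It fell by 1.01 ± 0.092 on the log2 scale in IM1 (edgeR adjusted p = 2.12e-10) and by 1.73 ± 0.097 in IM3 (adjusted p = 1.04e-14), and it rose by 1.65 ± 0.096 in iSLC against IM3 (adjusted p = 1.75e-14). The IM1 call was lost without M replicate 2 (-0.95), IM1 replicate 1 (-0.98) or IM1 replicate 3 (-0.97), with DESeq2's test or size factors (-0.99 in each), with no low-count filter (-0.99) and with an effective length offset (-0.90), while it was -1.63 with a GC offset. The iSLC rise was the single one among the 7 regulators, beside 10.3% of all genes that rose. It was 1.11 with a GC offset and 1.00 against IM1, IM2 and IM5 averaged, where it fell just short of the fold of 2. A pseudogene is named for *Nr1h2*, and its part in the counts was not tested. *Nr1h3* (LXR alpha) was at 0.93 to 2.61 TPM by group mean, with counts too low for the thresholds, and its log2 fold change was -1.81 ± 0.19 in IM3 against IM1.

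*Abca1* had the widest span of the 32 members. This exporter, which loads cholesterol onto lipid-poor apolipoproteins, was at 4.33, 4.65 and 4.58 TPM in ESC, at 0.68, 0.88 and 0.62 TPM in EpiSC and at 0.63, 0.56 and 0.67 TPM in M. It was then at 6.55, 8.11 and 7.56 TPM in IM1, at 2.90, 3.27 and 2.73 TPM in IM3, and at 28.6, 26.5 and 28.9 TPM in iSLC, which is 45.2 times the M mean. EpiSC and M overlapped, and the other groups named were apart from them and from each other. It fell by 2.38 ± 0.11 on the log2 scale in EpiSC (edgeR adjusted p = 3.48e-16), the only member that fell there, beside 4.32% of all genes. It rose by 3.45 ± 0.11 in IM1 (adjusted p = 4.81e-20) and by 2.01 ± 0.11 in IM3 (adjusted p = 1.14e-14), and by 3.31 ± 0.097 in iSLC against IM3 (adjusted p = 8.69e-21). The iSLC value was 2.89 against IM1, IM2 and IM5 averaged. With a GC offset the values from M were 3.32 in IM1 and 1.82 in IM3. Endoderm markers summed to at most 12.6 TPM in M (3 of 5 at 1 TPM or more), to 326 to 354 TPM in IM1 and to 333 to 396 TPM in IM3 (5 of 5 in each), and endothelial markers were at 51.9 to 64.6, 121 to 133 and 64.6 to 76.0 TPM (1, 5 and 5 of 5). Their part in the change of *Abca1* was not tested.

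*Abcg1*, which passes cholesterol to mature lipoprotein particles, was at 5.20, 4.82 and 4.15 TPM in EpiSC and at 2.02, 1.75 and 2.00 TPM in M, with no overlap. It fell by 1.36 ± 0.11 on the log2 scale (edgeR adjusted p = 3.22e-11), the only member that fell from EpiSC to M, beside 7.72% of all genes. In iSLC it was at 4.09, 3.80 and 3.98 TPM, above the 1.23, 1.29 and 1.11 TPM of IM3, and rose with a log2 fold change of 1.71 ± 0.12 (adjusted p = 1.27e-12), which was 1.09 against IM1, IM2 and IM5 averaged. It was 0.886 times the ESC level, with a log2 fold change of -0.38 ± 0.11 from ESC (adjusted p = 0.00227), whereas *Abca1* was at 2.87 ± 0.094 from ESC (adjusted p = 2.43e-20).

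**Figure D5:**
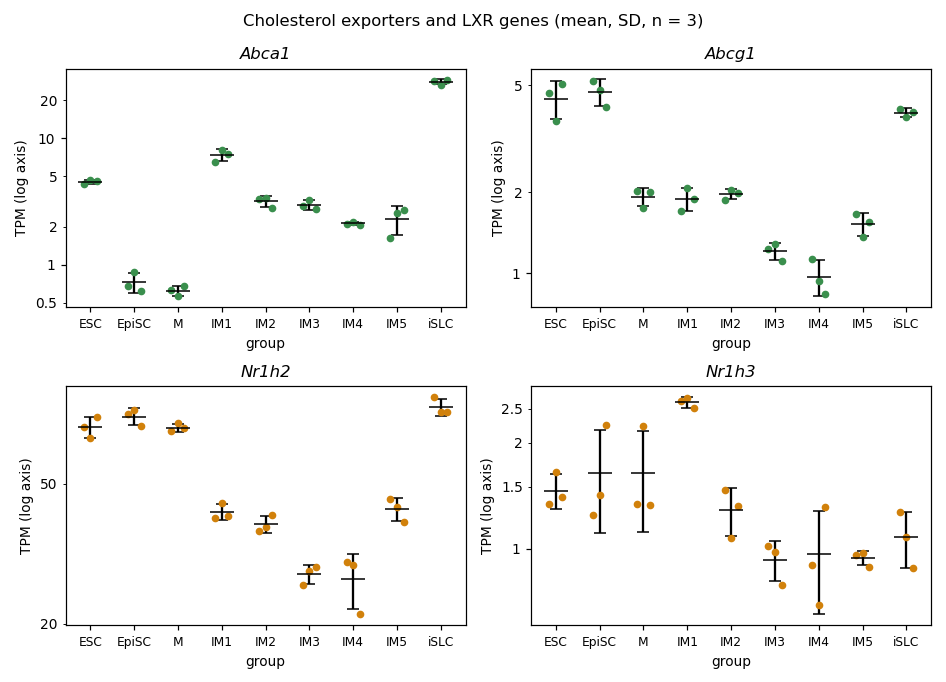
TPM of the exporters *Abca1* and *Abcg1* and the LXR genes *Nr1h2* and *Nr1h3* in each library (points) by group, with mean and SD (n = 3), on log axes. *Abca1*, *Abcg1* and *Nr1h2* are each higher in all iSLC libraries than in all IM3 libraries, while *Nr1h3* overlaps between these groups.

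Uptake, storage and transfer genes followed other courses. *Stard4*, which moves cholesterol between membranes and is an SREBP target, was at 13.9, 13.4 and 14.6 TPM in ESC and at 35.3, 33.3 and 32.8 TPM in EpiSC, and rose with a log2 fold change of 1.27 ± 0.048 (edgeR adjusted p = 7.31e-18). It peaked at 85.2 TPM in IM3 and fell by 1.16 ± 0.046 on the log2 scale in iSLC (adjusted p = 5.6e-18), which was -0.99 with a GC offset and -0.87 against IM1, IM2 and IM5 averaged, both short of a fold of 2. *Soat1*, which esterifies cholesterol for storage, was at 32.9, 32.7 and 36.8 TPM in ESC and at 79.1, 88.0 and 83.9 TPM in EpiSC, and rose by 1.29 ± 0.05 (adjusted p = 1.46e-17). Unlike the enzymes it kept much of its level in iSLC, at 121, 126 and 118 TPM, and its log2 fold change was -0.49 from IM3 and 1.67 from ESC.

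The NPC proteins carry cholesterol out of lysosomes. *Npc2*, the soluble partner, was at 40.0, 40.2 and 39.8 TPM in EpiSC and at 166, 147 and 155 TPM in M, and rose with a log2 fold change of 1.9 ± 0.062 (edgeR adjusted p = 1.14e-19). It was highest in iSLC at 163 TPM. *Npc1*, the membrane partner, was at 17.8 to 29.4 TPM by group mean and was not DE in any comparison, and in EpiSC it stood at -0.31 ± 0.061 (adjusted p = 9.92e-05). The partners thus differed in their span, 4.26-fold for *Npc2* and 1.65-fold for *Npc1*.

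Few of these genes passed the fold of 2 between IM conditions. In IM3 against IM1, which differ by RA, 1 of 32 members was DE. *Abca1* fell by 1.44 ± 0.094 on the log2 scale (edgeR adjusted p = 1.08e-12), beside 3.72% of all genes that fell, and no member was among the 2.62% that rose. By class, the enzymes had a median log2 fold change of 0.17, from -0.60 for *Ebp* to 0.39 for *Sc5d*. IM3 and IM1 also differ in red blood cell genes (6.14 to 19.6 and 0.923 to 1.38 CPM) and in endothelial markers (64.6 to 76.0 and 121 to 133 TPM, 5 of 5 at 1 TPM or more in each), whose part was not tested. With a GC offset *Abca1* was at -1.50 and the enzymes' median was 0.17. Activin A, taken as IM2 and IM5 against IM3 and IM4, gave no DE member by edgeR or DESeq2, beside 3.91% of all genes, although 26 members had an unadjusted p under 0.05. The enzymes had a median log2 fold change of -0.14, with 17 of 19 below 0, *Soat1* at -0.51, *Insig1* at 0.41, *Nr1h2* at 0.59 and *Abcg1* at 0.72. This contrast coincides with the red blood cell partition, so Activin A and the partition cannot be told apart. With a GC offset the enzymes' median was -0.15, *Nr1h2* was at 0.13, and the regulators' median turned from 0.13 to -0.13. Endoderm markers summed to 551 to 772 TPM in IM2 and IM5 and to 333 to 444 TPM in IM3 and IM4 (5 of 5 markers at 1 TPM or more in each group), and their part was not tested.

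CHIR99021 without Activin A (IM4 against IM3) gave no DE member by edgeR or DESeq2, beside 0.101% of all genes. At an unadjusted p under 0.05 there were 3 members, and 4 by DESeq2. The enzymes' median log2 fold change was 0.00, and the values furthest from 0 were *Abca1* at -0.40 and *Abcg1* at -0.29. With Activin A (IM5 against IM2) no member was DE by either tool, beside 0.235% of all genes, and 16 had an unadjusted p under 0.05. No member passed the thresholds for a CHIR99021 effect that differs by Activin A, beside 0.0336% of all genes. The lowest adjusted p of this edgeR interaction was 0.092, for *Stard4*. At an unadjusted p under 0.05 there were 8 members, and DESeq2 called none.

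Genes of neighbouring lipid pathways were counted in the same way. Of 12 fatty acid and lipogenic genes, 3 rose from ESC to EpiSC, beside 3.75% of all genes, the desaturase genes *Scd2* (log2 fold change 1.29), *Scd1* (1.11) and *Fads2* (1.05), each an SREBP-responsive gene. Against IM3, 4 of the 12 fell in iSLC, beside 8.92% of all genes, led by *Scd1* (-1.99), *Elovl6* (-1.53), which elongates fatty acids, and *Scd2* (-1.03). *Acss2*, which makes acetyl-CoA from acetate, rose there by 1.65. *Me1*, a source of NADPH for lipid synthesis, was the single one of the 12 that rose in IM1 (2.25) and in IM3 (2.11) from M, a share near that of all genes (9.72% and 9.26%).

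Among 22 other sterol-handling genes, 5 rose and 2 fell in iSLC against IM3, beside 10.3% and 8.92% of all genes, so that the share that fell was near that of all genes. *Cyp7b1*, an oxysterol hydroxylase, rose by 3.21 and the endocytic receptor gene *Lrp1* by 1.99, from 148 ± 18.4 TPM in IM3 to 568 ± 14.5 TPM in iSLC (SD, n = 3). *Soat2*, the esterifying enzyme of liver and gut, fell by 3.02 on the log2 scale and the lipoprotein receptor gene *Lrp8* by 2.18. From M to IM1, *Soat2* rose by 4.92, together with endoderm markers that summed to at most 12.6 TPM in M (3 of 5 markers at 1 TPM or more) and 326 to 354 TPM in IM1 (5 of 5). Their part in the rise was not tested. Of 10 steroidogenic genes 4 rose in iSLC against IM3, beside 10.3% of all genes, among them *Cyp11a1*, which cuts the side chain off cholesterol, from 0.473 ± 0.0874 to 36.7 ± 5.85 TPM, *Fdx1* by 1.95 and *Fdxr* by 1.78, its electron donors. Leydig cell markers, which include *Cyp11a1*, summed to 10.3 to 12.9 TPM in IM3 (1 of 5 at 1 TPM or more) and 70.6 to 91.1 TPM in iSLC (4 of 5).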

How the data were processed

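RNA from 27 libraries in 9 groups of 3 was sequenced in pairs. According to the submitters' notes and the paper's methods, the authors trimmed reads with cutadapt 1.9.1, aligned them to GRCm38 with STAR 2.5.2a and quantified genes with RSEM 1.3.0. Whether counting used strand is not stated. The authors deposited expected counts, which are unnormalized RSEM estimates of fragments per gene. TPM, as deposited, is scaled by effective length to the same sum everywhere. FPKM, as deposited, is scaled by length and by library total. The effective length column, in another unit, was used as the authors deposited it for an offset.

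Each file lists 48795 genes, of which 48435 (99.26%) matched GENCODE M21 on GRCm38. Expected counts were rounded, filterByExpr of edgeR 4.0.16 (R 4.3.3) kept 20839 genes, and its quasi-likelihood test (glmQLFit, then glmQLFTest) was fitted to all groups together with TMM factors and Benjamini-Hochberg adjustment. DESeq2 1.42.0, offsets for length or GC content, the replicate block, other filters and left-out libraries were alternatives. Levels are TPM. Steps were tested on simulated counts. Totals were 35923040 to 84876603 per library, which leaves counting error small except for *Nr1h3*. The members, lists and tests were chosen with earlier results of these data known. All members are named, and full statistics are given for the 3 largest rises and falls among DE members and for members against their class. Replicate numbers were taken to pair libraries where the deviations of every same-numbered pair correlated above 0.1, which held for IM4 and IM3 alone among the comparisons of 2 groups (0.235 to 0.345).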

Additional observations from a re-analysis of the deposited data

How the results depend on the processing

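Of 52 calls of a member in a comparison, 43 held under all alternatives tried and 9 were lost under at least 1, each still in the same direction. No called member changed sign. The lost calls lay near the fold of 2 and included *Hsd17b7*, *Tm7sf2* and *Mvk* in EpiSC, *Nr1h2* in IM1, *Stard4* in iSLC and *Srebf1* in iSLC against ESC. *Pmvk*, *Dhcr7* and *Nr1h2* in iSLC were lost with IM1, IM2 and IM5 averaged in place of IM3, an alternative chosen after seeing the data, as was the comparison of iSLC with ESC.

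Without the fold minimum the number of DE members was 26 in EpiSC vs. ESC, 23 in M vs. EpiSC, 22 in IM1 vs. M, 23 in IM3 vs. M, 16 in IM3 vs. IM1, 23 for Activin A, 5 in IM5 vs. IM2, 29 in iSLC vs. IM3 and 25 in iSLC vs. ESC, which follows from the lower threshold. The share of all genes under this looser rule is not given here, so these counts say nothing particular about cholesterol genes. Without the mean count minimum it was 2 in IM3 vs. IM1, *Nr1h3* being added. *Nr1h3* also met the remaining thresholds in IM3 vs. M, at a log2 fold change of -1.04 (edgeR adjusted p = 5.58e-05). On FPKM the median log2 ratio of enzyme levels in iSLC over IM3 was -1.66, and the Pearson correlation in place of Spearman's was 0.898; the cause was not tested. When each library was left out in turn the counts of DE members were 13 to 17 in EpiSC vs. ESC, 3 in M vs. EpiSC, 2 to 3 in IM1 vs. M, 4 in IM3 vs. M, 1 in IM3 vs. IM1, 19 to 20 in iSLC vs. IM3 and 7 in iSLC vs. ESC.

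With the replicate number as a block (replicate block), 14 members rose and 1 fell in EpiSC vs. ESC, 3 rose and 16 fell in iSLC vs. IM3, and 0 were DE in IM4 vs. IM3 (edgeR, 2 at an unadjusted p under 0.05; DESeq2 without the block 0), the comparison in which the numbers pair the libraries, so it changed none of these counts. In the other comparisons the numbers need not mark pairs, since same-numbered libraries correlated at 0.0247 in the mean of all. Depth limits only *Nr1h3*, at 25 to 225 counts.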
